A study of Mus musculus with 12 samples.

Results

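The node and notochord genes considered here are 6 named genes of the mouse axial midline, *Noto*, *Foxa2*, *Shh*, *Chrd*, *Nog* and *Foxj1*. They were chosen by name, with earlier results of these data known. Their levels were obtained by adding the estimated counts of all RefSeq transcripts of each symbol in every library. These are 6 of the 38911 genes listed, and all 6 were among the 16966 genes that passed a filter on low counts and entered the tests. The RNA came from gastruloids, aggregates of embryonic stem (ES) cells that form the main body axis in culture, made from 200 E14TG2a mouse ES cells each and collected on day 4. The ES cells had been grown in 2iLIF medium, which holds a Wnt agonist, an ERK antagonist and leukaemia inhibitory factor. By the study's methods, gastruloids also received a Wnt agonist before day 3 to induce mesoderm. The groups differed in their medium from day 3 to day 4. Control gastruloids received 1× glucose (21.25 mM), and the other groups received no glucose (0×), 3× glucose (63.75 mM), or 1× glucose with 5 mM 2-deoxy-D-glucose (2-DG), a glucose analog that enters glycolysis and glycosylation but cannot be fully used. Each of the 4 groups holds 3 polyA RNA libraries, 1 from each of ES cell passages 13, 15 and 16, so all results describe a single cell line. The comparisons ask whether 2-DG, or the amount of glucose itself, changed the expression of these genes while mesoderm was being specified. The study's methods describe each treatment and replicate as a pool of several gastruloids from 1 plate.

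The node lies at the anterior end of the primitive streak and gives rise to the notochord, the rod of axial mesoderm under the future spinal cord. Node and notochord cells use the homeobox factor *Noto* and the forkhead factor *Foxa2*, secrete the hedgehog ligand *Shh* and the BMP antagonists *Chrd* and *Nog*, and, in the node, form motile cilia under the control of the forkhead factor *Foxj1*. Apart from *Noto*, these genes have other well-known sites of expression: *Foxa2* in endoderm and floor plate, *Shh* in floor plate and gut, *Chrd* and *Nog* in neural and mesodermal tissue, and *Foxj1* in multiciliated cells.

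In mm10 coordinates (GRCm38, GENCODE M21 gene bounds), *Noto* lies at chr6:85423886-85428877 on the plus strand, *Foxa2* at chr2:148042877-148046969 on the minus strand and *Shh* at chr5:28456815-28467256 on the minus strand. *Chrd* lies at chr16:20733127-20742384 on the plus strand, *Nog* at chr11:89300638-89302332 on the minus strand and *Foxj1* at chr11:116330704-116335399 on the minus strand. The span of *Shh* overlaps the antisense gene *9530036O11Rik* over 8983 bases and the lincRNA *Gm26894* over 883 bases, and *Chrd* overlaps *Thpo*, which encodes thrombopoietin on the opposite strand, over 1385 bases. The library kit keeps the strand, but the strand setting of the counting is not given in the sources used here, so reads of these overlapping genes cannot be told apart with certainty.

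The RefSeq promoter table (GRCm38.p6) held 3 of the 6 members, and the 250 bases upstream of the start are shown for each because they belong to the factor that was not detected in 2-DG, the factor that followed the ES cell passage and the member that rose in 2-DG. They are written 5′ to 3′ on the strand of the gene, with the match to a searched motif in capitals. The intervals are chr6:85423636-85423885 (plus strand) for *Noto*, chr2:148046970-148047219 (minus strand, the most upstream of 3 listed starts) for *Foxa2*, and chr16:20732877-20733126 (plus strand) for *Chrd*.
Noto: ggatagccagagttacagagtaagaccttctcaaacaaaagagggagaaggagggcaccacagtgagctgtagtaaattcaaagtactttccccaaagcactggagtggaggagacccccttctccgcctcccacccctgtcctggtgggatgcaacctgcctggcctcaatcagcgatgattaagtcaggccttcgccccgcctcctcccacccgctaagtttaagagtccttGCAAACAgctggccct
Foxa2: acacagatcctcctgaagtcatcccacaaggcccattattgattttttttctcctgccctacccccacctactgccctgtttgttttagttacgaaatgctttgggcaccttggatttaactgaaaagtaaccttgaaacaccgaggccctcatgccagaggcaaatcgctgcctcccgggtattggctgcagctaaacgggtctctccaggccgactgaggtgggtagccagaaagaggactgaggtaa
Chrd: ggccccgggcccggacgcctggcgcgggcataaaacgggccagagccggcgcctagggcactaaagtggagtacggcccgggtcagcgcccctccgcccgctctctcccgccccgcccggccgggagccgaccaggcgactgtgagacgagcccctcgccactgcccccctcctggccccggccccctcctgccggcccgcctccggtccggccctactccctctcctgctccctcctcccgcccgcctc
The capitals in the *Noto* region mark GCAAACA, the reverse complement of the forkhead motif TGTTTGC, beginning 16 bases before the start. Both strands were searched for TCACACCT (T-box), TGTTTAC and TGTTTGC (forkhead), CTTTGAT (TCF/LEF), GGAATG (TEAD) and TGGGTGGTC (GLI), motifs that do not contain each other. Of 32851 regions of the same length in the table, 1.12%, 3.17%, 4.3%, 3.21%, 12.6% and 0.225% held them, in that order. No other match lay in the 5 regions listed for these members. The GC content was 54.8% for *Noto*, 50.8% for this *Foxa2* start and 78% for *Chrd*, against a median of 52.4% over all regions.

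The libraries held 31902471 to 45956080 counts each, with the 3 1× glucose libraries among the 4 deepest, and levels are given as CPM, that is, counts corrected for library size and composition by TMM. In the 2-DG libraries 3 counts came to 0.0799 to 0.0878 CPM, so the counts themselves are also given for the rarest genes. The early mesoderm and notochord factor *T* (Brachyury) was expressed in all libraries, between 64.6 and 330.2 CPM. The common dispersion was 0.0316 without a passage term and 0.0063 with passage as a block.

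All 6 members were low beside *T*. Scaled to the length of the merged exons so that genes can be compared, the level in 1× glucose was 1.00 ± 0.198 CPM per kb for *Nog*, 0.694 ± 0.197 for *Chrd* and 0.496 ± 0.404 for *Foxa2* (mean ± SD, n = 3 libraries). *Foxj1*, *Shh* and *Noto* followed at 0.154 ± 0.033, 0.154 ± 0.122 and 0.152 ± 0.043 CPM per kb, whereas *T* stood at 97.2 ± 36.6. All neighbours in this order were closer to each other than the sum of their SDs. In 2-DG the order changed to *Chrd* at 1.2 ± 0.131 CPM per kb, *Nog* at 0.225 ± 0.119, *Foxj1* at 0.181 ± 0.061, *Foxa2* at 0.152 ± 0.123, *Shh* at 0.056 ± 0.052 and *Noto* at 0. By the same measure *Chrd* stood apart from *Nog* there, while the neighbours from *Nog* down to *Shh* were closer than the sum of their SDs. *Shh* also stood apart from *Noto*, whose SD was 0, but neither had a count in the passage 15 library of 2-DG.

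Between 2-DG and 1× glucose, *Nog* and *Noto* were lower and *Chrd* was higher in the fit without a passage term, while *Foxa2*, *Shh* and *Foxj1* did not pass the test. With passage as a block *Foxa2* was also called lower (edgeR, adjusted p = 9.86e-05), in a fit that called 41.3% of all genes. Without that block, 3 of 6 members were called at an adjusted p under 0.05 (edgeR's quasi-likelihood test, Benjamini-Hochberg adjustment over all genes), where 17.6% of all tested genes were called. By direction, 1 member was called higher against 9.12% of all genes, and 2 were called lower against 8.51%. At an unadjusted p under 0.05 the count was also 3 of 6, against 31.7% of all genes. *Noto*, 1 of these 3, passed the filter on low counts only through libraries without 2-DG. With only the groups compared *Noto* was not tested, and 1 member, *Nog*, was called, beside 1896 of 16543 genes. The median log2 fold change of the members was −1.56 and that of all genes 0.00. In RNA from whole aggregates, fewer cells that express a gene and less RNA of it per cell cannot be told apart, here and in all results that follow.

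**Figure D1:**
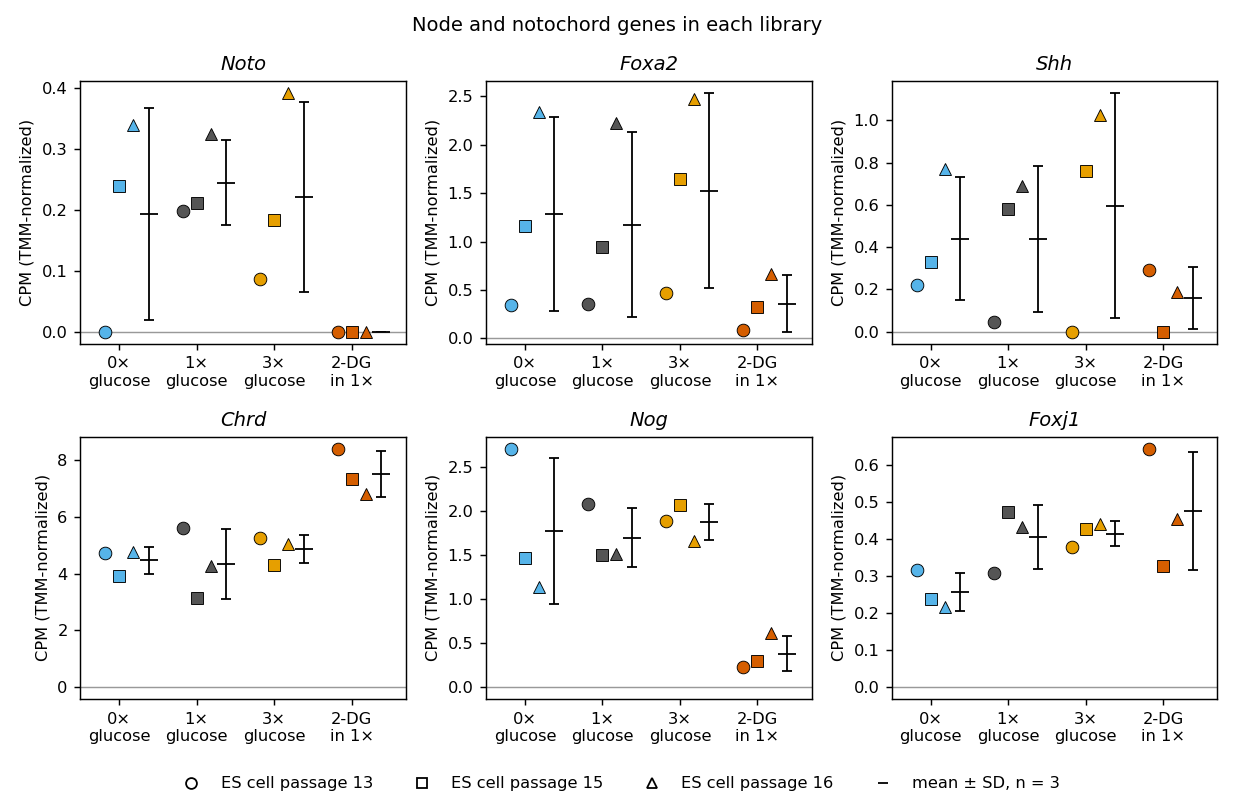
CPM of each node and notochord gene (vertical axis, linear, a separate scale per gene) in the 4 treatment groups. Each point is 1 library with the ES cell passage as its symbol, and the bar beside the points is the mean ± SD of 3 libraries. *Nog* in 2-DG (0.234 to 0.613 CPM) lies below every 1× glucose library, as for 17.2% of all genes. *Chrd* in 2-DG (6.79 to 8.40 CPM) lies above every 1× glucose library, as for 18.3% of all genes.

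*Noto*, the most restricted node and notochord marker of the set, was counted 9, 8 and 15 times in the 1× glucose libraries of passages 13, 15 and 16. It was counted 0 times in each of the 3 2-DG libraries, 0, 8 and 11 times in 0× glucose, and 3, 6 and 16 times in 3× glucose, in the same passage order. The 2-DG libraries were therefore the only group without a single count, although the passage 13 library of 0× glucose also had none. In CPM, the level in 1× glucose was 0.244 ± 0.070, and 3 counts in each 2-DG library, the upper limit that a count of 0 allows, would be 0.083 CPM on average. Against the mean of 1× glucose, *Noto* was thus at least 2.93-fold lower in 2-DG. This bound leaves out the spread of 1× glucose (0.198 to 0.324 CPM). The adjusted p was 0.0375, and the alternatives gave values between 0.00806 and 0.0995. *Noto* passed the filter on low counts only through libraries without 2-DG. With only the groups compared it did not pass and was not tested, and with no filter the adjusted p was 0.0432. The call was lost when any 1 of the 6 libraries was dropped (1× glucose or 2-DG, passage 13, 15 or 16), with adjusted p of 0.0613 to 0.0881. With passage as a block, it was kept in each of these (0.0116 to 0.0352). DESeq2 gave no adjusted p for this gene. The study also names *Noto* among the genes lower in 2-DG, with its control described as PBS-treated gastruloids. That statement rests on the study's deposited RNA data, which are those used here, so it is not separate evidence.

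*Foxa2*, a forkhead factor required for the node and notochord, stood at 0.351, 0.947 and 2.23 CPM in the 1× glucose libraries (passages 13, 15 and 16) and at 0.088, 0.327 and 0.666 CPM in those with 2-DG. The 2-DG library was the lower one in each of the 3 passages, as for 30.7% of all genes, but the groups overlapped, because the passage 16 library of 2-DG stood above the passage 13 library of 1× glucose. The log2 fold change was −1.68 (SE 0.92, 95% interval −3.71 to 0.34) and was not called (adjusted p = 0.240). With passage as a replicate block, which compares libraries of the same passage, nearly the same log2 fold change of −1.69 had an SE of 0.20 and was called (adjusted p = 9.86e-05, 41.3% of all genes being called in that fit). Every blocked fit without 1 library also called it, at −1.83 to −1.57 (adjusted p 0.000183 to 0.00154). Within passages 13, 15 and 16 the log2 ratio was −2.0, −1.53 and −1.74, the first of which rests on 3 counts in 2-DG against 16.

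*Shh*, the hedgehog ligand that the notochord secretes to pattern the neural tube, was counted 2, 22 and 32 times in 1× glucose and 10, 0 and 7 times in 2-DG. It was thus lower in 2-DG in passages 15 and 16 and higher in passage 13, where both counts were small. The log2 fold change was −1.44 (SE 1.24, 95% interval −4.19 to 1.30, adjusted p = 0.480), an interval that holds a large decrease as well as an increase, and the block did not narrow it enough for a call (adjusted p = 0.347). Dropping the passage 13 library of 2-DG, which held the 10 counts, gave a call in the blocked fit (adjusted p = 0.0332, against 0.0332 to 0.783 over the 6 libraries). With all libraries a difference was not detectable at this depth.

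*Chrd* encodes the secreted BMP antagonist chordin. In the passage order above it had 5.62, 3.16 and 4.26 CPM with 1× glucose, and 8.40, 7.33 and 6.79 CPM with 2-DG. All 3 2-DG libraries stood above all 3 of 1× glucose, as for 18.3% of all genes in this direction. The mean was 4.34 ± 1.23 CPM against 7.51 ± 0.820 CPM, a rise of 1.72-fold (log2 fold change 0.79, SE 0.19, adjusted p = 0.0189). The call was lost when 1 of 4 libraries was dropped, namely the passage 15 or 16 library of 1× glucose (adjusted p 0.0568 and 0.0567) and the passage 13 or 15 library of 2-DG (0.0685 and 0.0536). It was also lost in a fit of only the groups compared (0.0689), and with the most abundant transcript alone the log2 fold change was −0.13 (0.931). It was kept with passage as a block whichever library was dropped (0.000694 to 0.00437). *Thpo*, the overlapping gene, was at 1.21 ± 0.394 CPM with 1× glucose and at 1.44 ± 0.254 CPM with 2-DG, and its part in the *Chrd* values was not tested.

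*Nog* encodes the BMP antagonist noggin. Its level was 2.09, 1.5 and 1.51 CPM in the 1× glucose libraries against 0.234, 0.300 and 0.613 CPM in those with 2-DG. The groups did not overlap, as for 17.2% of all genes in this direction, and the 8, 11 and 23 counts of the 2-DG libraries compare with 95, 57 and 70 in 1× glucose. *Nog* fell 4.39-fold (log2 fold change −2.14, SE 0.39, adjusted p = 0.00506). It was called whichever of the 6 libraries was dropped (adjusted p 0.00423 to 0.0287). The log2 ratio within passages 13, 15 and 16 was −3.15, −2.32 and −1.30, and with 1 library per passage and treatment a difference between passages in this ratio was not tested. The summed counts of *Chrd* and *Nog* thus moved in opposite directions in the same libraries. The rise of *Chrd* was not seen when its most abundant transcript alone was counted (log2 fold change −0.13, SE 0.36).

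*Foxj1*, the forkhead factor that switches on motile cilium genes, was counted 14, 18 and 20 times in 1× glucose and 22, 12 and 17 times in 2-DG. Levels were 0.404 ± 0.086 CPM and 0.475 ± 0.160 CPM, and 2-DG was higher in 2 of 3 passages. The log2 fold change of 0.23 (SE 0.30, 95% interval −0.43 to 0.89, adjusted p = 0.665) was smaller than the spread between libraries. The interval reaches neither the fitted decrease of *Nog* nor that of *Foxa2*, but it overlaps the interval of *Foxa2* (−3.71 to 0.34).

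**Figure D2:**
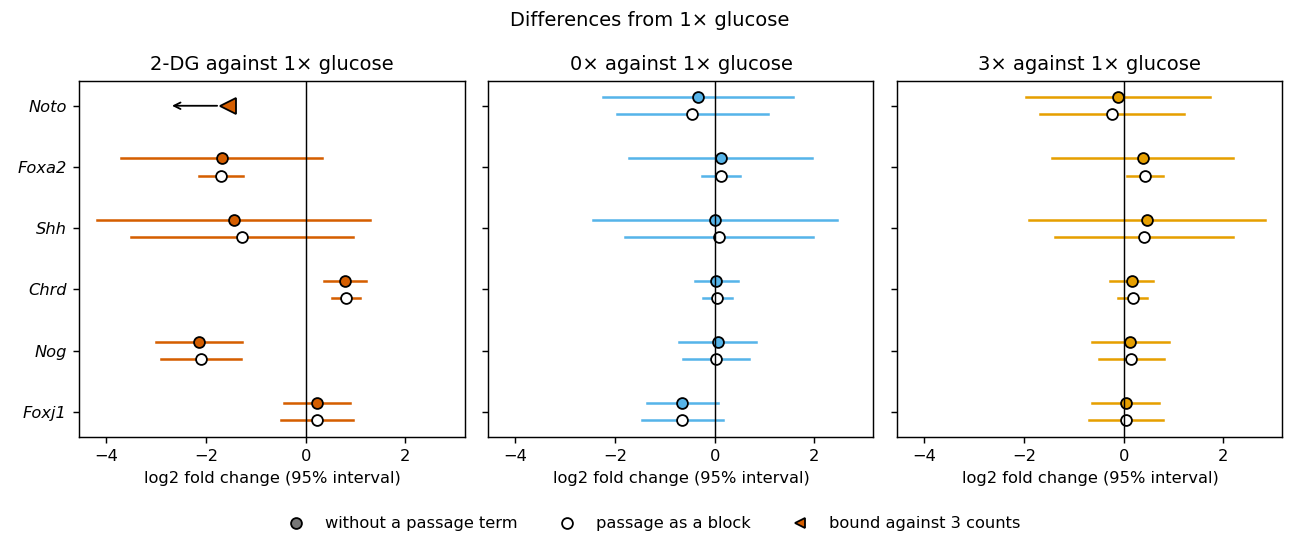
Log2 fold change of each member (horizontal axis) in 2-DG, 0× and 3× glucose, each over the same 1× glucose libraries, with 95% intervals. Filled points come from the fit without a passage term and open points from the fit with passage as a block. The triangle is the bound for *Noto* (at least 2.93-fold lower than the mean of 1× glucose, whose spread is left out). The *Foxa2* interval in 2-DG spans 0 without the block (−3.71 to 0.34) and not with it (−2.13 to −1.25).

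In the plot of fold changes, *Foxa2* in 2-DG is the member whose call differs between the fits with and without the block. With the block 4 of 6 members were called in 2-DG (41.3% of all genes), and with DESeq2 2 were called (22.6% of all genes) while *Noto* had no adjusted p. All 3 comparisons with 1× glucose share the same control libraries and are set side by side below only by their own values.

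No member was called between 0× and 1× glucose (edgeR), where 0.0118% of all genes were called. The count was also 0 at an unadjusted p under 0.05 (1.8% of all genes), with DESeq2 (0.0708%) and with the block (0.0177%). *Nog* had 2.71, 1.46 and 1.14 CPM in 0× glucose and *Chrd* had 4.73, 3.91 and 4.75 CPM, both overlapping their 1× glucose values. The log2 fold changes were 0.06 for *Nog* (95% interval −0.72 to 0.83), 0.04 for *Chrd* (−0.39 to 0.46) and 0.13 for *Foxa2* (−1.71 to 1.96). The intervals for *Nog* and *Chrd* do not reach the values fitted for these genes in 2-DG, while that of *Foxa2* includes its value there. The interval of *Chrd* in 2-DG (0.36 to 1.21) nevertheless overlaps its interval in 0× glucose. With passage as a replicate block the *Foxa2* interval was −0.25 to 0.50, which does not reach the blocked value in 2-DG (−1.69). *Noto* at −0.33 (−2.24 to 1.57) and *Shh* at 0.01 (−2.43 to 2.46) had intervals that include differences of several fold in either direction. *Foxj1* had the lowest value, with 10, 8 and 7 counts in 0× glucose against 14, 18 and 20, a log2 fold change of −0.65 (−1.36 to 0.07) that was not called.

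No member was called between 3× and 1× glucose either (edgeR), where 0 of all 16966 genes were called, and the count was again 0 at an unadjusted p under 0.05 (1.05% of all genes), with DESeq2 (0.0118%) and with the block (0%). *Foxa2* had 0.464, 1.65 and 2.47 CPM in 3× glucose, above 1× glucose in each passage but by less than the spread between passages (log2 fold change 0.38, 95% interval −1.43 to 2.19). With passage as a block its interval was 0.06 to 0.79, and the adjusted p was 0.905. The log2 fold changes of *Shh* (0.46), *Chrd* (0.16), *Nog* (0.14), *Foxj1* (0.04) and *Noto* (−0.12) all had intervals that included 0. Those of *Chrd* (−0.26 to 0.59) and *Nog* (−0.63 to 0.91) again did not reach the values fitted in 2-DG, although the 2-DG interval of *Chrd* (0.36 to 1.21) overlaps.

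2-DG was also set against 0× glucose, to compare the glucose analog with the absence of glucose, which uses the same 2-DG libraries. *Chrd* was higher (log2 fold change 0.75, SE 0.19, adjusted p = 0.0220) and *Nog* lower in 2-DG (−2.19, SE 0.40, adjusted p = 0.00411), with no overlap between the groups for either gene. These 2 members were called against 18.9% of all genes, 9.86% higher and 9.04% lower, and groups stood apart for 19.3% of all genes upward and 18.6% downward. At an unadjusted p under 0.05 the count was 4 members against 33% of all genes, and with DESeq2 it was 3 against 22.7%. The *Chrd* call was lost without the passage 13 or 15 library of 2-DG or the passage 15 or 16 library of 0× glucose, with adjusted p up to 0.0850. With passage as a replicate block 4 members were called against 43.1% of all genes, with *Foxa2* (−1.82, SE 0.20, adjusted p = 5.92e-05) and *Noto* (adjusted p = 0.0158) in addition. This *Noto* call was lost without the passage 16 library of 2-DG or the passage 15 or 16 library of 0× glucose (adjusted p up to 0.0613). *Noto* stood just outside the threshold without the block (adjusted p = 0.0517, and 0.00785 to 0.133 in the alternative fits). Against the mean of 0× glucose (0.193 ± 0.174 CPM) its bound was at least 2.32-fold lower in 2-DG, which leaves out the spread of 0× glucose. The groups overlapped, as neither had a count in passage 13. *Noto* was called without the passage 13 library of 0× glucose (0.0134). *Foxj1* had 22, 12 and 17 counts in 2-DG against 10, 8 and 7 in 0× glucose, groups that did not overlap in CPM. Its log2 fold change of 0.88 (SE 0.32, 95% interval 0.16 to 1.59) was not called (adjusted p = 0.0848), and in the blocked fit it crossed the threshold only without the passage 15 library of 2-DG (adjusted p = 0.0489, against up to 0.339 without another). Between 3× and 0× glucose no member was called (edgeR), where 0.0118% of all genes were called, and 0 members had an unadjusted p under 0.05 (4.33% of all genes) or were called with the block (0.802%). DESeq2 called 0 (0.251% of all genes) and gave no adjusted p for 5 of the 6.

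*Foxa2* differed between the ES cell passages in every treatment group. Averaged over the 4 treatments, *Foxa2* had 0.313 ± 0.159 CPM in passage 13, 1.02 ± 0.547 in passage 15 and 1.93 ± 0.846 in passage 16 (n = 4 libraries each). Its order over passages was the same within every treatment. At equal treatment it was 3.21-fold higher in passage 15 than in passage 13 (log2 fold change 1.68, SE 0.18, adjusted p = 5.39e-05, 41.8% of all genes called) and 6.17-fold higher in passage 16 (2.62, SE 0.17, adjusted p = 2.74e-06, 40.2%). Between passages 16 and 15 it differed 1.92-fold (adjusted p = 0.00913, 4.2%). Each passage gave 1 library per treatment, so passage number cannot be told apart from the day or batch on which the gastruloids were made.

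**Figure D3:**
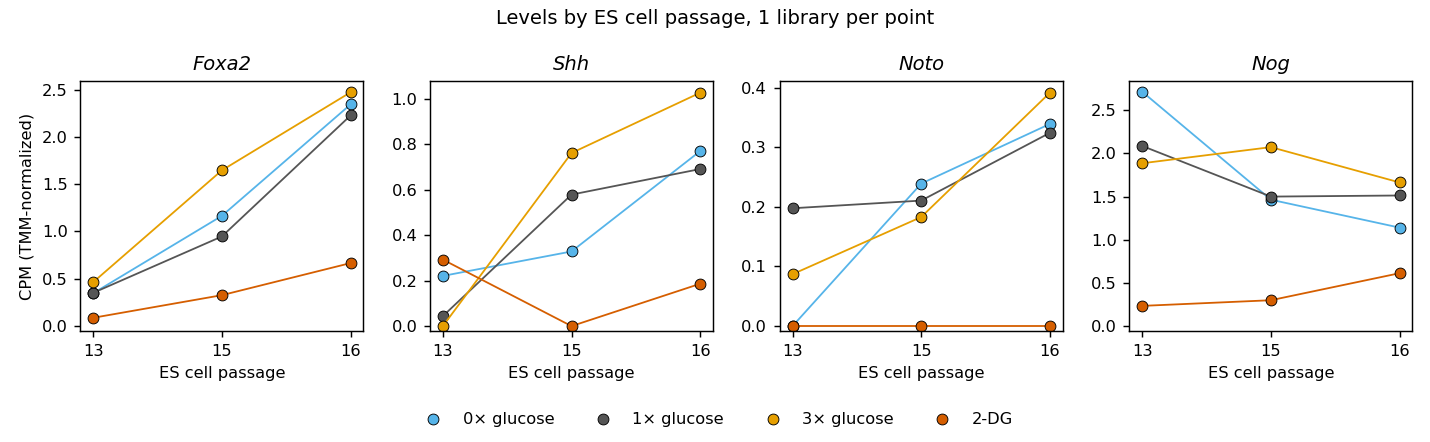
CPM of *Foxa2*, *Shh*, *Noto* and *Nog* (vertical axes, linear, separate scales) by ES cell passage (evenly spaced on the horizontal axis), 1 library per point, with lines that join libraries of 1 treatment. *Foxa2* goes up with passage in all 4 treatments, from 0.088 to 0.464 CPM in passage 13 to 0.666 to 2.47 CPM in passage 16, and the 2-DG line lies lowest throughout.

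Of the members, *Foxa2* (adjusted p = 5.33e-06) and *Chrd* (adjusted p = 0.0390) differed between the 3 passages in a joint test (edgeR with treatment and passage as terms), where 46.2% of all genes did. *Foxa2* was called whichever of the 12 libraries was dropped. *Chrd* was called in 3 of these 12 fits and not in the others (adjusted p up to 0.113). *Chrd* ran the other way, lower in passage 15 than in passage 13 (log2 fold change −0.39, SE 0.11, adjusted p = 0.0168). *T* was lower in passage 15 than in passage 13 as well (0.589-fold, adjusted p = 0.00836). In passage 13 *Noto* was counted 9 times in 1× glucose, 3 times in 3× glucose and not at all in the other libraries, and *Shh* was at 0.139 ± 0.140 CPM there against 0.669 ± 0.352 CPM in passage 16. These differences were not called (adjusted p 0.144 for *Noto* and 0.131 for *Shh*). *Nog* and *Foxj1* showed no such order (adjusted p 0.445 and 0.926).

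The counts per gene are sums over RefSeq transcripts between which StringTie apportioned the reads, and for part of the members this apportioning was uneven. *Noto*, *Nog* and *Foxj1* had all their counts on 1 transcript, and *Shh* 96.7% of them. *Foxa2* is listed with 3 transcripts and had counts on 2, one with 69.1% of the counts in 5 libraries and the other with 30.9% in 10 libraries. Nearly all *Foxa2* reads of a library were given to one or the other: in 1× glucose the first transcript held 0, 0 and 100 counts and the second held 16, 36 and 3, and in 2-DG the first held 0 in all 3 libraries and the second held 3, 12 and 25. Only the sum was used above.

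**Figure D4:**
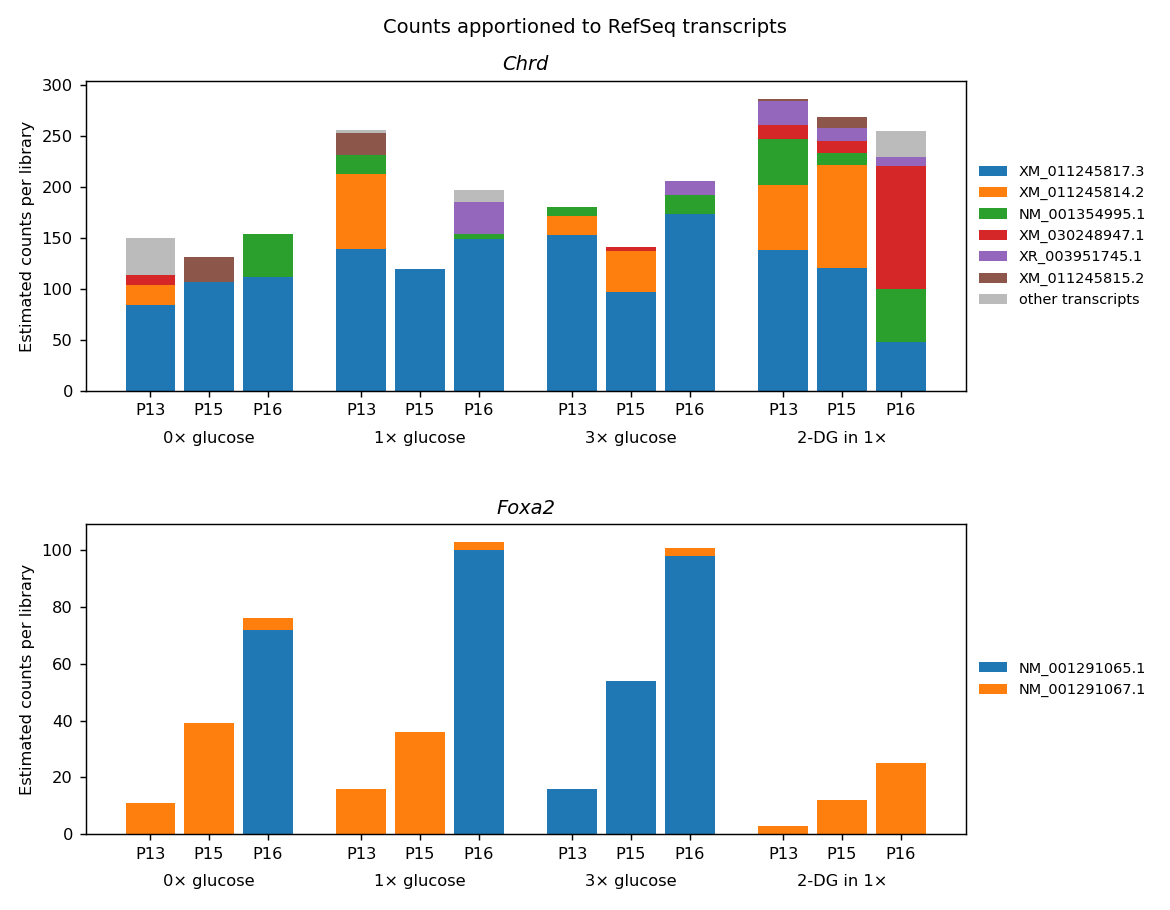
Estimated counts of each RefSeq transcript of *Chrd* and *Foxa2* (stacked bars, vertical axis from 0) in the 12 libraries, grouped by treatment and labelled P13, P15 and P16 for the ES cell passage. The most abundant *Chrd* transcript (blue) holds 139, 120 and 149 counts in 1× glucose and 138, 121 and 48 in 2-DG. The added height of the 2-DG bars, in counts not scaled to library size, comes from other transcripts.

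*Chrd* is listed with 18 transcripts, of which 12 had counts. The most abundant, with 61.4% of all counts, had 139, 120 and 149 counts in 1× glucose and 138, 121 and 48 in 2-DG. Taken alone it gave a log2 fold change of −0.13 (SE 0.36, adjusted p = 0.931) in place of 0.79 for the sum. Over all alternative fits of *Chrd*, the adjusted p ran from 0.000600 (the sum, with passage as a block) to this 0.931. In raw counts the higher *Chrd* total in 2-DG lay in the other transcripts, as the bars per transcript show. The 2-DG libraries of passages 13 and 15 were shallower than those of 1× glucose, so nearly equal counts there mean a higher level. Only in passage 16 was the most abundant transcript clearly lower in 2-DG. In that 2-DG library a transcript with 0 counts in all 1× glucose libraries held 121 of the 255 counts. When all 46254 transcripts that passed the filter were tested on their own, 133 were called between 2-DG and 1× glucose, and 0 of the 12 tested transcripts of the members were among them (edgeR), with 3 at an unadjusted p under 0.05 and 2 called by DESeq2, those of *Noto* and *Nog* (adjusted p = 0.00703 and 6.98e-05). For *Nog*, whose gene and transcript counts are the same, the adjusted p was 0.157 in that larger test.

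Genes that work with the members were described as 8 lists, drawn up from general knowledge but with earlier results of these data known, by how many of their tested genes were called between 2-DG and 1× glucose. Of 12 axial organizer regulators tested, 0 were called higher and 3 were called lower, beside 9.12% and 8.51% of all genes. These were the Nodal antagonist *Lefty2* (log2 fold change −2.69, adjusted p = 0.0107), *T* (−1.57, adjusted p = 0.0136) and *Nodal* itself (−1.91, adjusted p = 0.0306). The median log2 fold change of the list was −1.20, 10 of the 12 had a negative sign, and with passage as a block 7 were called lower, in a fit that called 41.3% of all genes. Of 8 genes for the structure of the notochord, 2 were higher, the cartilage and notochord factor *Sox9* (11.4 ± 4.53 CPM in 1× glucose, 37.7 ± 5.25 CPM in 2-DG, log2 fold change 1.72, adjusted p = 0.00741) and the keratin *Krt18* (0.87, adjusted p = 0.0244), and none was lower. Both of these are also made in many cells outside the notochord.

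**Figure D5:**
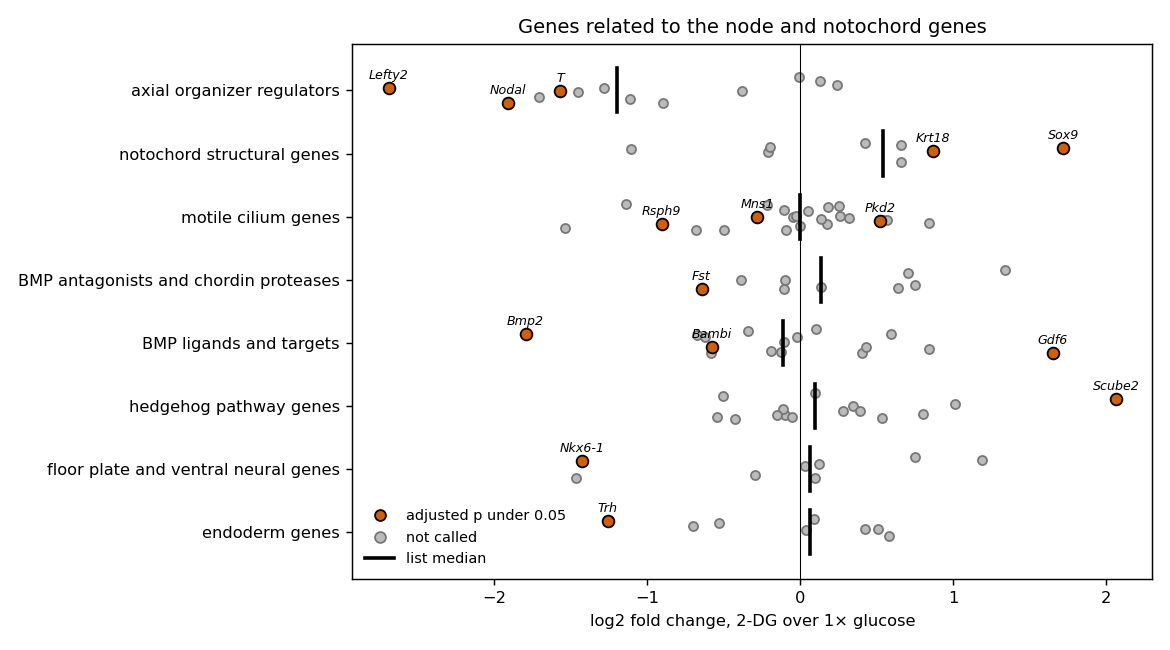
Log2 fold change in 2-DG over 1× glucose (horizontal axis) of the tested genes in 8 lists, 1 point per gene with a random vertical offset. Orange points with names passed an adjusted p under 0.05, grey points did not, and the black line is the list median, which is lowest for the axial organizer regulators (−1.20) and highest for the notochord structural genes (0.54).

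Among partners of the BMP antagonists, 1 of 9 other antagonists and chordin proteases was called, the activin and BMP antagonist *Fst* (−0.64, adjusted p = 0.0437). Of 16 BMP ligands and targets, the ligand *Gdf6* was higher (1.65, adjusted p = 0.00976), and the ligand *Bmp2* (−1.80, adjusted p = 0.0176) and the BMP target and pseudoreceptor *Bambi* (−0.57, adjusted p = 0.0186) were lower. The median was −0.12. Of 15 hedgehog pathway genes, only *Scube2*, which helps to release hedgehog ligands, was called (2.07, adjusted p = 0.0131). The hedgehog targets *Ptch1* (−0.10, adjusted p = 0.678) and *Gli1* (−0.51, adjusted p = 0.449) were not called. These genes, at 88.3 ± 16 and 16.5 ± 5.66 CPM in 1× glucose, differed between the groups by less than their spread.

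Of 31 motile cilium genes, 23 passed the filter on low counts. The cation channel *Pkd2* was higher (0.52, adjusted p = 0.000129), the radial spoke gene *Rsph9* (−0.91, adjusted p = 0.00173) and *Mns1*, which is needed to assemble motile cilia, (−0.28, adjusted p = 0.0252) were lower, and the median was −0.00. Floor plate and endoderm also use several of the members. Of 8 floor plate and ventral neural genes tested out of 11, *Nkx6-1*, a ventral neural factor, was lower (−1.43, adjusted p = 0.00516), and the summed level of the list was 51.3 to 157.5 CPM in 1× glucose and 86.6 to 141.7 CPM in 2-DG. Of 8 endoderm genes tested out of 12, *Trh* was lower (−1.26, adjusted p = 0.0366), and the summed level was 55.3 to 84.8 CPM in 1× glucose and 52.4 to 72.6 CPM in 2-DG. Of the 12 endoderm genes, *Pyy* and *Ttr* had no count in any library. The part of these cell types in the values of *Foxa2* and *Shh* was not tested. Of the 99 list genes tested, 15 were called in 2-DG, where 17.6% of all genes were called, and all are named above. Leaving out a 1× glucose library kept 13 of them (passage 13), 8 (passage 15) or 10 (passage 16), and leaving out a 2-DG library kept 9, 8 or 11. *Lefty2*, *Sox9*, *Pkd2*, *Rsph9*, *Gdf6* and *Nkx6-1* were called in all 6 of these fits, and *Nodal* and *Trh* in 1. With passage as a block, where 41.3% of all genes were called, the genes called higher and lower were 4 and 1 of the notochord structural genes, 2 and 4 of the motile cilium genes, 3 and 2 of the BMP antagonists and chordin proteases, 4 and 4 of the BMP ligands and targets, 6 and 3 of the hedgehog genes, 2 and 1 of the floor plate genes and 3 and 2 of the endoderm genes. In 0× and 3× glucose against 1× glucose 0 of the 99 list genes were called with edgeR and with DESeq2, and 2 and 0 had an unadjusted p under 0.05.

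The genes with the most similar profile to each member were found by Pearson's r of log2 CPM over the 12 libraries, among genes with a mean of at least 100 counts, as a description of libraries that share treatments and passages. Genes picked in this way tend to share the member's differences in these same libraries, so their calls are not separate evidence for any member. For *Noto* these were *Egfl7* (r = 0.963), *Coa5* (0.925), *Stk16* (0.923), *Trh* (0.921) and *Lcmt2* (0.921). For *Foxa2* they were *Mmp2* (0.978), *Pwwp3b* (0.975), *Smarcad1* (0.971), *Znrf1* (0.970) and *Tnpo3* (0.966), all of which differed between passages (adjusted p at most 0.000367) and none of which was called in 2-DG. For *Shh* the order was *Gli1* (0.888), *Zim1* (0.850), *Tchh* (0.848), *B3galt6* (0.843) and *Sspo* (0.843).

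*Chrd* was most similar to *Hcn4* (0.977), *Rpp25* (0.969), *Sgip1* (0.967), *Car11* (0.963) and *Lrrn4* (0.963), all called higher in 2-DG. All of these but *Car11* also differed between passages (adjusted p at most 0.0236). *Nog* was most similar to *Dennd11* (0.978), *Gm38515* (0.977), *Lmo2* (0.977), *Cnn2* (0.976) and *Dck* (0.976), all called lower in 2-DG and none between passages. The closest genes to *Foxj1* were *Xkr4* (0.855), *Txndc15* (0.826), *Zfp955b* (0.817), *Ric8a* (0.797) and *Mob3b* (0.791), none of them called in 2-DG or between passages.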

How the data were processed

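PolyA RNA was sequenced from 12 libraries of day 4 gastruloids, 3 in each of 4 groups. The authors deposited the estimated counts of 120312 RefSeq transcripts per library, made with Trim Galore, HISAT2, SAMtools, Picard and StringTie on mm10 per the labels. Versions and parameters are not given in the sources used here. All values were whole numbers. Tables of the authors' own DESeq2 comparisons were not used.

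Transcripts were assigned to symbols with the RefSeq table of GRCm38.p6, which matched all of them, and added up per gene. Of 38911 genes, 26382 had a count and 16966 passed edgeR's filterByExpr. All 12 libraries were fitted together (R 4.3.3, edgeR 4.0.16, glmQLFit and glmQLFTest, TMM), without a passage term except in the test between passages. Tests were two-sided with Benjamini-Hochberg adjustment and a threshold of 0.05. Standard errors came from the F statistic and 95% intervals from the t distribution with the fit's degrees of freedom. A gene whose counts did not exceed 3 in every library of a group is given as a bound against 3 counts per library. This covers counting error in that group only and leaves out the spread of the other group. The lengths used for CPM per kb are the merged exons of GENCODE M21. With 3 libraries in a group, an exact permutation test could not pass the threshold and none was used. P-values measure the spread between these libraries.

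The labels give each library its ES cell passage (13, 15 or 16), which pairs libraries across groups. Deviations from the group means correlated at 0.0963 to 0.623 in the 18 pairs of the same passage and at no more than 0.191 in other pairs. No pair of libraries shared more than 9.67% of its values among transcripts averaging 10 counts or more.

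The alternatives were no filter, a filter at 1 CPM in at least 3 libraries, DESeq2 1.42.0, median-of-ratios factors, passage as a block, the most abundant transcript of each gene, only the groups compared, and leaving out each library. The block combined with leaving out a library was added after seeing the data. Only the edgeR fit without a passage term, the fit with passage as a block and DESeq2 had first been tested on simulated data. The other alternatives were not tested in this way. The simulated data held no passage effect, and only genes with higher counts were changed in them. They therefore did not test the block against a passage effect, or the fits for the rarest members. Named genes were the members, *T*, up to 3 genes called in each direction per list with the smallest adjusted p, and the 5 most similar genes per member. *Ptch1*, *Gli1*, *Pyy* and *Ttr* from the lists, and *Thpo*, were named after their values were seen. Members and lists were chosen with earlier results of these data known.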

Additional observations from a re-analysis of the deposited data

How the results depend on the processing

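The number of members called between 2-DG and 1× glucose (3) dropped to 1 (*Nog*) with the most abundant transcript of each gene and with only the groups compared, where *Noto* did not pass the filter and was not tested, and was 1 to 2 when 1 library was left out. Between 2-DG and 0× glucose it was 2, and became 4 with passage as a replicate block, 1 with the most abundant transcript, and 1 to 3 without 1 library. Between passages it was 2, and became 1 with no filter and with DESeq2, 0 with the most abundant transcript and 1 to 2 without 1 library. The cause was not tested. The *Chrd* difference was lost with the most abundant transcript, at −0.13 (SE 0.36) against 1× glucose and −0.11 (SE 0.36) against 0× glucose. This setting leaves out the other transcripts by construction. *Chrd* and *Noto* in 2-DG depend on single libraries in the fit without the block, as given above. The replicate block changed no other member's call than those of *Foxa2* and, against 0× glucose, *Noto*. The counts over all genes moved by more than 1.5 times in several settings. From 2990 in 2-DG against 1× glucose they went to 7001 with the block, 653 with the most abundant transcript and 1896 with only the groups compared, and to as few as 1734 without 1 library. From 3207 in 2-DG against 0× glucose they went to 7305, 775 and, without 1 library, as few as 2051. From 7840 between passages they went to 1879 with the most abundant transcript. In 0× against 1× glucose 2 became 12 with DESeq2, 0 with only these groups and 1 without the passage 16 library of 1× glucose or passage 13 library of 0× glucose. In 3× against 1× glucose 0 became 2 with DESeq2 and 2 with the most abundant transcript. In 3× against 0× glucose 2 became 31 with DESeq2, 136 with the block, 1 with the most abundant transcript or without the passage 16 library of 3× glucose, and 0 with only these groups. Counts per library of 0 to 42 for *Noto*, *Shh* and *Foxj1* limit what could be detected for them.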

Other observations

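Between ES cell passages, all 8 tested notochord structural genes, all 9 tested BMP antagonists and chordin proteases and all 8 tested endoderm genes were called, against 46.2% of all genes (edgeR, joint test with treatment as a term). Of the endoderm genes, 6 were higher and 2 were lower in passage 16 than in passage 13, with a median log2 fold change of 0.77 against −0.01 for all genes. Of the notochord structural genes, 6 were higher and 2 lower in passage 16 (median 0.51), and of the BMP antagonists and chordin proteases, 6 were higher and 3 lower (median 0.18). Of the 8 floor plate and ventral neural genes tested, 5 were called, 4 higher and 1 lower (median 0.41), and of the 16 BMP ligands and targets 10 were called, 7 higher and 3 lower (median 0.22). The part of endoderm, floor plate and notochord cells in the passage difference of *Foxa2* was not tested. Of the 15 hedgehog pathway genes, 10 were called, 8 of them higher in passage 16, with a median of 0.31. Of the 12 axial organizer regulators, 8 were called, 4 higher and 4 lower in passage 16, with a median of 0.03. Of the 23 motile cilium genes, 11 were called, 3 higher and 8 lower, with a median of −0.26.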
